A study of Mus musculus with 9 samples.

Results

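Type IV collagen is represented on the mouse array by 6 genes, Col4a1, Col4a2, Col4a3, Col4a4, Col4a5 and Col4a6, and by the 12 probes that carry 1 of those symbols in the platform's probe annotation, out of 19057 named genes and 45279 probes in all. Every one of these probes has a scanner value on all arrays. A probe was tested where its detection p-value, the scanner's own measure of signal above the array's negative controls, was under 0.05 on at least 3 of the 9 arrays. That left 9 of the 12 probes, with at least 1 for each of the 6 genes. The probes not tested are 3 of the 4 for Col4a6.

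RNA came from cells labelled as spermatids, the haploid germ cells that follow meiosis, of mice with 3 genotypes. They are wild type (Wip1+/+), Wip1-/- without the phosphatase WIP1 encoded by Ppm1d, and a group labelled Wip1-/- ATM +/-, in which 1 allele of the kinase gene Atm is also missing. Each genotype was hybridised to 3 Illumina Mouse WG-6 arrays. The series title asks about silencing of heterochromatin through ATM, BRCA1 and DNA methylation. Strain, age, number of animals, the deleted exons and the way spermatids were purified are not stated in the labels. The labels do not tie the 3 arrays of a genotype to different animals, so every p-value rests on array-to-array spread that may be technical only.

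Type IV collagen is the network-forming collagen of basement membranes. Its chains assemble in the endoplasmic reticulum into triple helices, which are secreted and joined end to end into a sheet that also binds laminin, nidogen and perlecan. The chains of Col4a1 and Col4a2 form the network present in nearly all basement membranes, those of Col4a3, Col4a4 and Col4a5 form a second network best known from the kidney glomerulus and also present in the testis, and the Col4a6 chain joins that of Col4a5, for example around smooth muscle. In the seminiferous tubule of the testis the sheet lies at the base of the epithelium, between Sertoli cells and peritubular myoid cells. Spermatids sit on the inner side of that epithelium. The genes lie in head-to-head pairs, Col4a1 with Col4a2 on chromosome 8, Col4a3 with Col4a4 on chromosome 1 and Col4a5 with Col4a6 on chromosome X.

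The start regions of 2 of these pairs are printed because the partners are spaced differently in each. They are RefSeq windows of 300 bases, 250 before and 50 after the annotated start (assembly GRCm38.p6), given 5′ to 3′ on the gene's own strand. A window was given for 5 of the 6 genes, all but Col4a3. For Col4a1 (chr8:11312777-11313076, minus strand) and Col4a2 (chr8:11312555-11312854, plus strand) the capitals mark the 78 bases, chr8:11312777-11312854, that both windows hold on opposite strands.
Col4a1: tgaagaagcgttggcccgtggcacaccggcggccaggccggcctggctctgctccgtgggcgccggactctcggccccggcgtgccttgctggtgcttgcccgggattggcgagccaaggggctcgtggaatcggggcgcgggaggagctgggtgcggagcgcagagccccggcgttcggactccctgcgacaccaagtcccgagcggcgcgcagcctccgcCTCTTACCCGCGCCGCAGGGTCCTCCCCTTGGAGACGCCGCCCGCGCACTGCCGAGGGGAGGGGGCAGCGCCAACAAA
Col4a2: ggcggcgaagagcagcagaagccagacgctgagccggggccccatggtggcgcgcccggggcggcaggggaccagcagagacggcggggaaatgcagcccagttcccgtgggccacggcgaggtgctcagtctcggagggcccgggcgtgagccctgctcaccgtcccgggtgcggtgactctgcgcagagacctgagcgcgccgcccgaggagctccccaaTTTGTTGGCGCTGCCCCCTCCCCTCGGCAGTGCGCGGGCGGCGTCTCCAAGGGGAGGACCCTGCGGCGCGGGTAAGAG
By these annotated starts 22 bases of chromosome 8 are transcribed in both directions. For Col4a5 (chrX:141475169-141475468, plus strand) and Col4a6 (chrX:141474027-141474326, minus strand) the windows do not overlap and the starts lie 1342 bases apart. Here the capitals mark matches, on either strand, to CCAAT (the CCAAT box) or GGGCGG (the GC box).
Col4a5: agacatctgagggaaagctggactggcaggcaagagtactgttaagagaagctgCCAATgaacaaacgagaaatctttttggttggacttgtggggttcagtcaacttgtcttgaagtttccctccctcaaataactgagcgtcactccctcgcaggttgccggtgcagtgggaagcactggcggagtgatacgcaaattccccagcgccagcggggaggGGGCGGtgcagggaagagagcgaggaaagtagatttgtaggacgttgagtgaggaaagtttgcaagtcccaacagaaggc
Col4a6: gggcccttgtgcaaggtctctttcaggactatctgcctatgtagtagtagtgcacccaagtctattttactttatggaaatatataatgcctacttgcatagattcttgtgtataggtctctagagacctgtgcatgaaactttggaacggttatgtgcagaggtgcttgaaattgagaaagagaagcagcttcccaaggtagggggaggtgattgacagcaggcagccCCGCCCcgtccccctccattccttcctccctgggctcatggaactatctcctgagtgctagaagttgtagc
The Col4a1 and Col4a2 windows are rich in CG dinucleotides, the sites of DNA methylation, with 37 and 33 of them and a G+C content of 74.0% and 73.7%. Over all 32851 windows the medians are 7 CG and 52.7% G+C, and 94.4% and 91.4% of windows hold fewer CG than these. The Col4a4 window (chr1:82586800-82587099, minus strand) holds 14 CG, the Col4a5 window 11 and the Col4a6 window 3. CCAAT was found once each in the windows of Col4a1, Col4a2 and Col4a5, against 37.4% of all windows with at least 1 match. GGGCGG was found 3 times in that of Col4a2 and once each in those of Col4a1, Col4a5 and Col4a6, against 35.7% of all windows. TATAAA, present in 13.6% of windows, was found in none of the 5. The single GGGCGG match of Col4a1 and 1 of those of Col4a2 are the same bases of the shared stretch, read on opposite strands. Matches of this kind describe letters only, and DNA methylation was not measured on these arrays.

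The arrays were of similar quality. The median scanner signal ran from 100.5 to 121.8 and 37.9% to 42% of probes with scanner values were detected on each array. Ppm1d, the gene deleted by the label, did not follow the labels on every probe. Its brightest probe stood at a mean log2 level of 9.34 in wild type, 8.68 in Wip1-/- and 9.44 on the arrays labelled Wip1-/- ATM +/-. It was thus lower in Wip1-/- (-0.66, limma adjusted p = 0.00634) but not on the arrays labelled Wip1-/- ATM +/- (0.10, limma adjusted p = 0.61), and a dim probe rose in Wip1-/- (1.23, limma adjusted p = 0.000621). Atm fell by 0.71 on the arrays labelled Wip1-/- ATM +/- on its brightest probe (limma adjusted p = 0.000649) and rose by 1.03 on another (limma adjusted p = 0.000246). The labels do not say where these probes lie relative to the deleted parts, so the group is named by its label throughout.

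Type IV collagen transcripts were higher in both mutant groups than in wild type, and higher on the arrays labelled Wip1-/- ATM +/- than in Wip1-/-. In Wip1-/- 5 of the 6 genes rose on at least 1 probe, by 1.60-fold to 2.38-fold on probes that at least 1 wild type array detected. On the arrays labelled Wip1-/- ATM +/- each of the 6 genes rose on at least 1 probe, by 3.54-fold to 9.43-fold on probes that at least 1 wild type array detected. For Col4a6 this rests on its 1 tested probe, detected on 0, 1 and 3 arrays of the genotypes in the order above. That probe passed the detection filter only through the group in which it is high. For 2 probes that no wild type array detected, 1 of Col4a4 and 1 of Col4a6, only a lower bound can be given, 7.04-fold and 1.28-fold. All levels below are log2 intensities after background correction and quantile normalization. They are compared for 1 probe between genotypes and not between probes, since probes differ in how strongly they bind. Sums over several genes, given further below, weigh the brightest probes most.

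**Figure D1:**
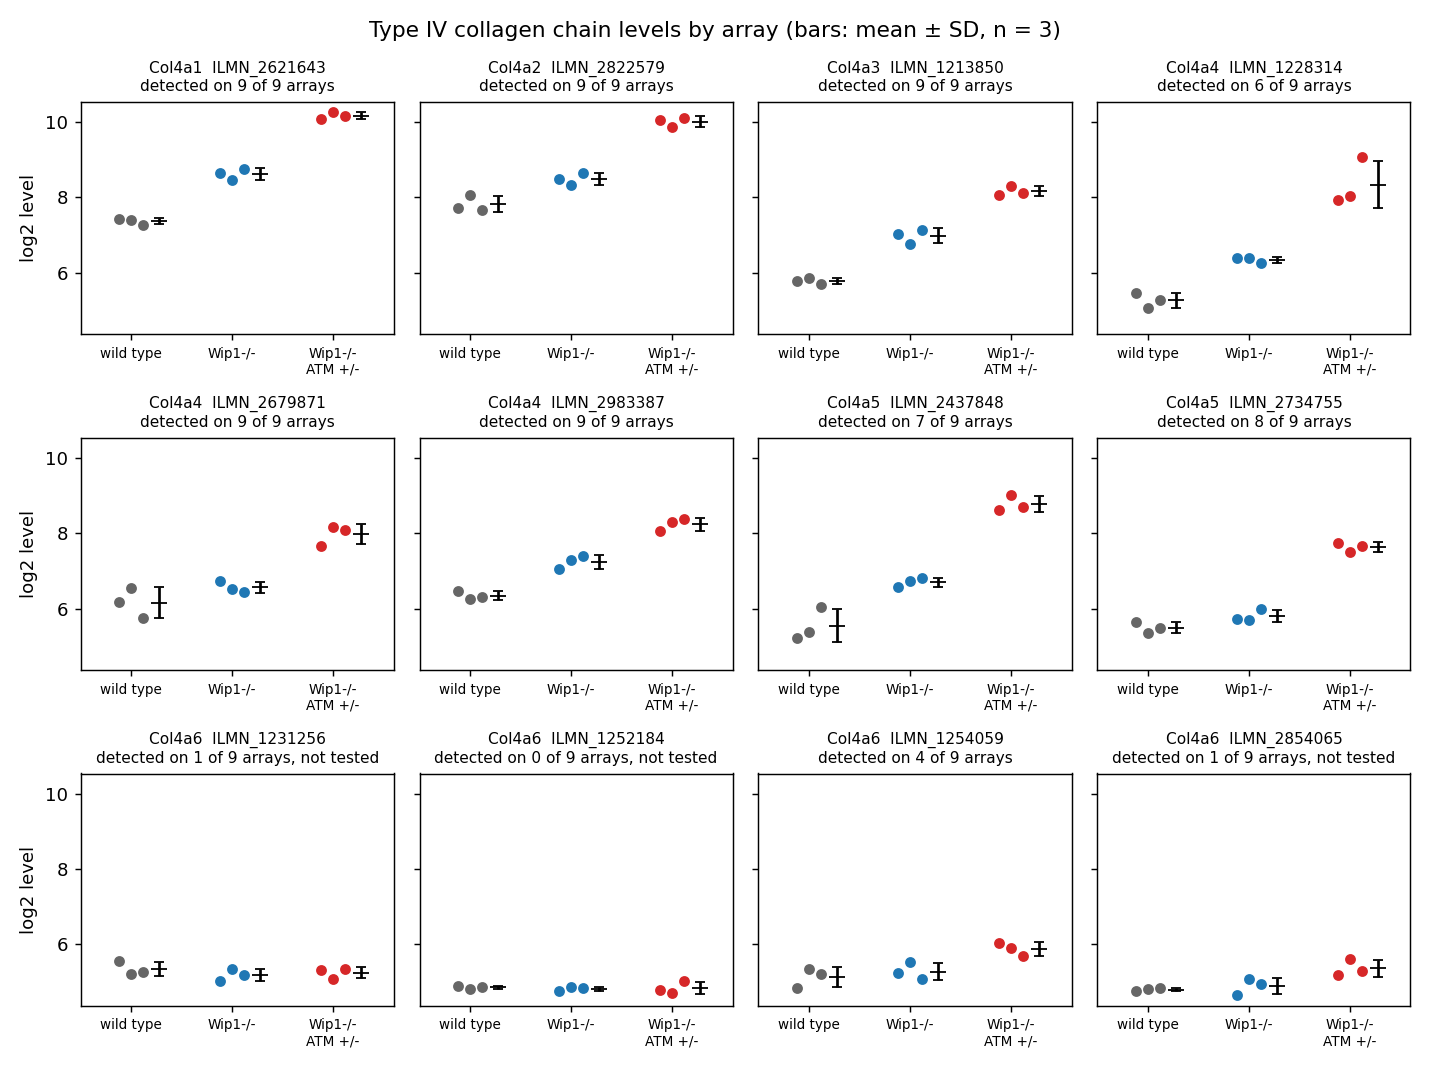
Log2 level of each type IV collagen probe on each of the 9 arrays, by genotype, with the mean and SD of 3 arrays per group. For the Col4a1 probe the wild type arrays lie at 7.27 to 7.44, the Wip1-/- arrays at 8.46 to 8.75 and the arrays labelled Wip1-/- ATM +/- at 10.09 to 10.26.

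Of the 9 tested probes, 6 were called higher in Wip1-/- than in wild type and none was called lower, where called means an adjusted p under 0.05 in limma over all 18867 tested probes. In that comparison 17.7% of all probes were called, which splits into 9.60% called higher and 8.07% called lower. Against wild type, the arrays labelled Wip1-/- ATM +/- had 9 of the 9 tested probes called higher, with 28.1% of all probes called, 13.3% as higher and 14.8% as lower. Against Wip1-/- they again had 9 of 9 called higher, with 33.6% of all probes called, 15.1% as higher and 18.6% as lower. Of the 9 tested probes 4, 8 and 8 were called and more than 2-fold higher by their fitted change in the 3 comparisons. Of all tested probes 1.05%, 5.06% and 4.33% were. The last count of members includes Col4a4 ILMN_2983387, only just over the line at 2.01-fold. The 4 in Wip1-/- include a Col4a4 probe that no wild type array detected, with a lower bound of only 1.76-fold. A Col4a5 probe among them was detected on 1 wild type array. The median log2 change over the tested members was 0.89, 2.20 and 1.52 in these comparisons, beside 0.02, -0.06 and -0.03 over all tested probes. The comparisons share arrays, so they are not independent of each other. Some dim members passed the detection filter only through the groups in which they are high, which favours higher calls among them.

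Col4a1 encodes a chain of the common network. Its probe stood at 7.44, 7.41 and 7.27 on the wild type arrays, at 8.66, 8.46 and 8.75 in Wip1-/- and at 10.09, 10.26 and 10.17 on the arrays labelled Wip1-/- ATM +/-. Each group lay wholly above the one before. The rise was 1.25 ± 0.12 (log2, SE, n = 3 arrays a group) in Wip1-/-, or 2.38-fold (limma adjusted p = 0.000174), and 2.80 ± 0.12 on the arrays labelled Wip1-/- ATM +/-, or 6.96-fold (limma adjusted p = 4.62e-08). The step from Wip1-/- to the arrays labelled Wip1-/- ATM +/- was 2.93-fold (limma adjusted p = 6.02e-06).

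Col4a2 encodes its partner chain. The levels were 7.71, 8.07 and 7.68 in wild type, 8.5, 8.33 and 8.66 in Wip1-/- and 10.07, 9.86 and 10.12 on the arrays labelled Wip1-/- ATM +/-. The groups again did not overlap, but the wild type and Wip1-/- arrays came closer to each other than for Col4a1. The rise was 0.68 ± 0.15 in Wip1-/-, or 1.60-fold (95% interval on the log2 scale 0.36 to 1.00, limma adjusted p = 0.00914), and 2.20 ± 0.15 on the arrays labelled Wip1-/- ATM +/-, or 4.59-fold (limma adjusted p = 7.47e-07). From Wip1-/- to the arrays labelled Wip1-/- ATM +/- it rose 2.87-fold (limma adjusted p = 2.14e-05).

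Col4a3 encodes a chain of the second network, in which mutations cause Alport syndrome of the kidney in humans. Its probe stood at 5.79, 5.86 and 5.70 in wild type, 7.04, 6.76 and 7.14 in Wip1-/- and 8.07, 8.31 and 8.13 on the arrays labelled Wip1-/- ATM +/-. All 9 arrays detected it and no group overlapped another. Its wild type detection p-values were 0.028, 0.022 and 0.029, so the fitted folds rest on wild type levels not far above background. The rise was 2.29-fold in Wip1-/- (1.19 ± 0.13, limma adjusted p = 0.000336) and 5.23-fold on the arrays labelled Wip1-/- ATM +/- (2.39 ± 0.13, limma adjusted p = 2.05e-07). The step between the mutant groups was also 2.29-fold (limma adjusted p = 5.85e-05).

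Col4a4, the partner of Col4a3, has 3 probes that differ in size of change but not in order. ILMN_2983387, the brightest over all arrays, stood at 6.47, 6.25 and 6.31 in wild type, 7.04, 7.28 and 7.39 in Wip1-/- and 8.05, 8.29 and 8.38 on the arrays labelled Wip1-/- ATM +/-. It rose 1.86-fold in Wip1-/- (0.89 ± 0.14, limma adjusted p = 0.00169) and 3.73-fold on the arrays labelled Wip1-/- ATM +/- (1.90 ± 0.14, limma adjusted p = 1.54e-06), with no overlap between groups. ILMN_2679871 stood at 6.18, 6.55 and 5.74 in wild type and at 6.73, 6.53 and 6.43 in Wip1-/-, which overlap, and at 7.67, 8.17 and 8.10 on the arrays labelled Wip1-/- ATM +/-. For this probe the Wip1-/- change was 0.40 ± 0.20 (limma adjusted p = 0.197) with an interval from -0.04 to 0.85, while the arrays labelled Wip1-/- ATM +/- were 3.54-fold above wild type (limma adjusted p = 5.17e-05). The third probe, ILMN_1228314, was not detected on any wild type array, where it read 5.46, 5.07 and 5.28, and stood at 6.39, 6.39 and 6.25 in Wip1-/- and at 7.92, 8.04 and 9.07 on the arrays labelled Wip1-/- ATM +/-. Against a dim group a fold is given as a bound from the lowest signal that counted as detected on each array or the probe's own, whichever is higher. On that basis it rose at least 1.76-fold in Wip1-/- (limma adjusted p = 0.0142) and at least 7.04-fold on the arrays labelled Wip1-/- ATM +/- (limma adjusted p = 4.39e-06). The Wip1-/- call ended without replicate 1 of that group (1.05, limma adjusted p = 0.0514), and without replicate 3 of the arrays labelled Wip1-/- ATM +/- the change of that group from wild type was 2.71 in place of 3.07.

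Col4a5, on chromosome X, encodes the chain shared by the second network and the Col4a6 network. Its brighter probe, ILMN_2437848, read 5.22, 5.38 and 6.05 in wild type, 6.57, 6.73 and 6.80 in Wip1-/- and 8.63, 9.03 and 8.70 on the arrays labelled Wip1-/- ATM +/-. Only 1 wild type array, the one at 6.05, detected it, and every mutant array lay above all wild type arrays. It rose 2.22-fold in Wip1-/- (1.15 ± 0.20, limma adjusted p = 0.00317) and 9.43-fold on the arrays labelled Wip1-/- ATM +/- (3.24 ± 0.20, limma adjusted p = 4.67e-07), fitted folds that rest on wild type levels near background. The second probe, ILMN_2734755, read 5.64, 5.36 and 5.48 in wild type, 5.72, 5.69 and 6.0 in Wip1-/- and 7.74, 7.5 and 7.66 on the arrays labelled Wip1-/- ATM +/-. These groups did not overlap either, yet the Wip1-/- change of 0.31 ± 0.13 missed the threshold (limma adjusted p = 0.13, interval 0.02 to 0.60), and the arrays labelled Wip1-/- ATM +/- were 4.41-fold above wild type (limma adjusted p = 4.75e-07). Both probes rose from Wip1-/- to the arrays labelled Wip1-/- ATM +/-, by 4.24-fold and 3.56-fold (limma adjusted p = 2.21e-05 and 4.14e-06).

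Col4a6 was near or below the detection limit throughout. Its tested probe, ILMN_1254059, read 4.85, 5.34 and 5.22 in wild type, 5.24, 5.52 and 5.07 in Wip1-/- and 6.05, 5.91 and 5.69 on the arrays labelled Wip1-/- ATM +/-, and was detected on 0, 1 and 3 arrays of these groups. Wild type and Wip1-/- overlapped (0.14 ± 0.17, limma adjusted p = 0.593), and without replicate 1 of the wild type that difference was 0.00. On the arrays labelled Wip1-/- ATM +/- it was at least 1.28-fold above wild type (0.75 ± 0.17, limma adjusted p = 0.00614). The rise from Wip1-/- of 0.61 ± 0.17 (limma adjusted p = 0.0162) ended with 1 of 3 arrays left out, at 0.59 without Wip1-/- replicate 1 (limma adjusted p = 0.0514), 0.50 without Wip1-/- replicate 3 (limma adjusted p = 0.0694) and 0.52 without replicate 1 of the arrays labelled Wip1-/- ATM +/- (limma adjusted p = 0.058). Among the untested probes, ILMN_2854065 had means of 4.80 ± 0.04, 4.90 ± 0.22 and 5.36 ± 0.21 (SD, n = 3) and was detected on 1 array. The other 2 were detected on 1 array or none, with group means between 5.19 and 5.35 for ILMN_1231256 and between 4.82 and 4.86 for ILMN_1252184. ILMN_1254059 had thus just passed the filter, with 4 arrays, and the probes just outside it had 1, 1 and 0.

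**Figure D2:**
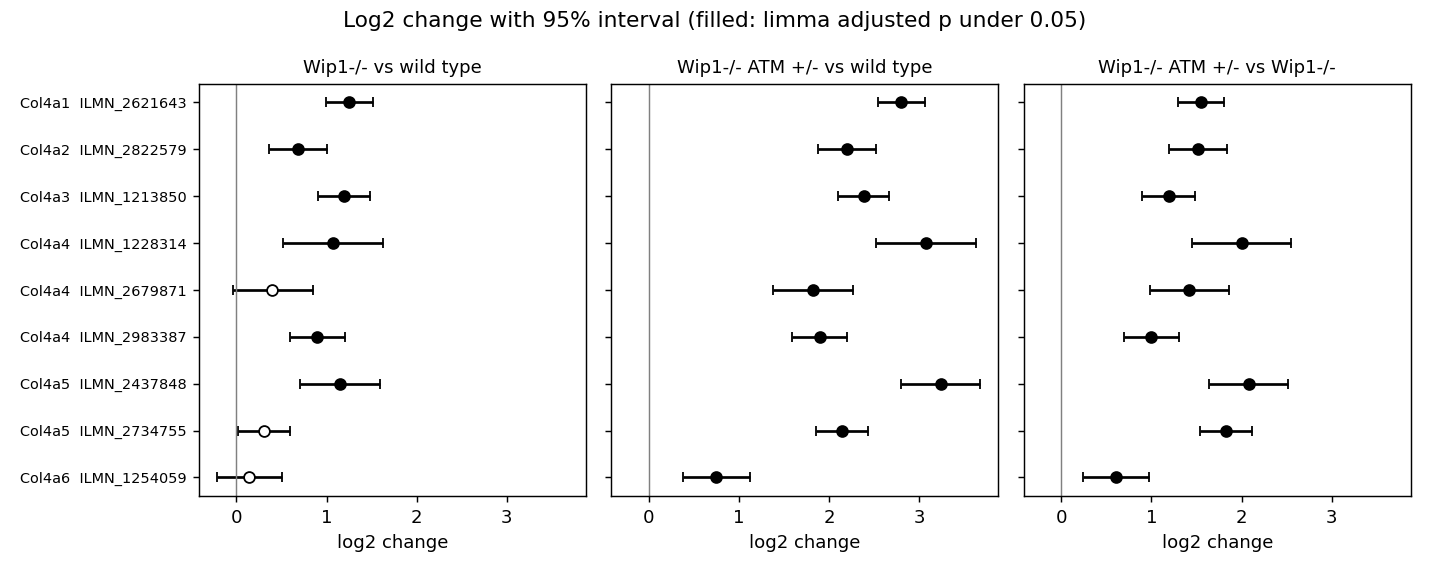
Log2 change of each tested type IV collagen probe in the 3 comparisons, with the 95% interval from limma. In Wip1-/- against wild type the changes run from 0.14 to 1.25, and from 0.75 to 3.24 where the arrays labelled Wip1-/- ATM +/- are compared with wild type.

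The order of the levels was therefore wild type, Wip1-/-, the arrays labelled Wip1-/- ATM +/- for each tested probe. For 2 probes the first and second group in that order overlapped, 1 of Col4a4 and the tested probe of Col4a6. In Wip1-/- against wild type 7 of the 9 probes had arrays wholly above those of wild type, beside 20.5% of all tested probes, and in each of the other comparisons 9 of 9 did, beside 18% against wild type and 21.4% against Wip1-/-. The authors' deposited table of quantile-normalized intensities, which keeps background, gave smaller differences in the same order for each tested probe. For the dim Col4a3 probe the log2 changes from wild type were 0.72 and 1.58 there, in place of 1.19 and 2.39. In the authors' deposited table the Col4a1 probe read 292.4, 289 and 269.9 in wild type, 554.5, 499.7 and 583.6 in Wip1-/- and 1273.5, 1417.5 and 1342.2 on the arrays labelled Wip1-/- ATM +/-.

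The 2 genes of a head-to-head pair were compared through the difference of their log2 levels on the same array, using the brightest tested probe of each. Since probes differ in binding, only the change of that difference between genotypes has a meaning. An F statistic over the 3 genotypes was set against all 1680 arrangements of the 9 arrays, for which the smallest possible p is 0.00357, and the p was adjusted over 3 pairs. Between 2 groups of 3 arrays the exact two-sided test cannot go below 0.1.

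For Col4a1 and Col4a2 an unequal change missed the threshold once the 3 pairs were allowed for. Their difference was -0.27, -0.65 and -0.41 in wild type, 0.16, 0.13 and 0.09 in Wip1-/- and 0.02, 0.40 and 0.05 on the arrays labelled Wip1-/- ATM +/-. The wild type arrays lay below all mutant arrays, and the mutant groups overlapped. The exact permutation p was 0.0357, and 0.0536 after adjustment. The difference rose by 0.57 in Wip1-/- and by 0.60 on the arrays labelled Wip1-/- ATM +/- (exact p = 0.1 each, the smallest possible), and the mutant groups differed by 0.03 (exact p = 1).

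Col4a3 and Col4a4 gave no settled answer, because the probes of Col4a4 disagreed. With ILMN_2983387 the difference was -0.68, -0.39 and -0.60 in wild type, 0.00, -0.52 and -0.25 in Wip1-/- and 0.02, 0.02 and -0.25 on the arrays labelled Wip1-/- ATM +/-. Wild type and Wip1-/- arrays overlapped (exact permutation p = 0.0714, also 0.0714 after adjustment). Without Wip1-/- replicate 1 or 2 the unadjusted exact p was 0.0393 or 0.0321. From wild type to the arrays labelled Wip1-/- ATM +/- the difference rose by 0.49 with this probe and by 0.56 with ILMN_2679871, but with ILMN_1228314 it went the other way, at -0.69. Over all 3 genotypes the unadjusted exact permutation p was 0.0179 and 0.0393 with these other probes. Since ILMN_1228314 was not detected on any wild type array, its value of -0.69 rests on wild type levels near background.

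The fitted levels of Col4a5 and Col4a6 moved apart, but the Col4a6 probe was detected on no wild type array and on 1 of Wip1-/-, so an unequal rise of the transcripts cannot be established from them. The difference was 0.37, 0.04 and 0.83 in wild type, 1.33, 1.20 and 1.73 in Wip1-/- and 2.58, 3.11 and 3.01 on the arrays labelled Wip1-/- ATM +/-, with no overlap between groups. Its exact permutation p over the 3 genotypes was 0.00357, the smallest possible, and 0.0107 after adjustment. The difference grew by 1.01 in Wip1-/- and by 2.49 on the arrays labelled Wip1-/- ATM +/-. With the other Col4a5 probe the growth was 0.17 and 1.39 (exact permutation p over the 3 genotypes = 0.0214). The background correction compresses changes of probes as dim as that of Col4a6, and its level in wild type is only bounded from above, so these values describe the fitted intensities and not the amount of either transcript.

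**Figure D3:**
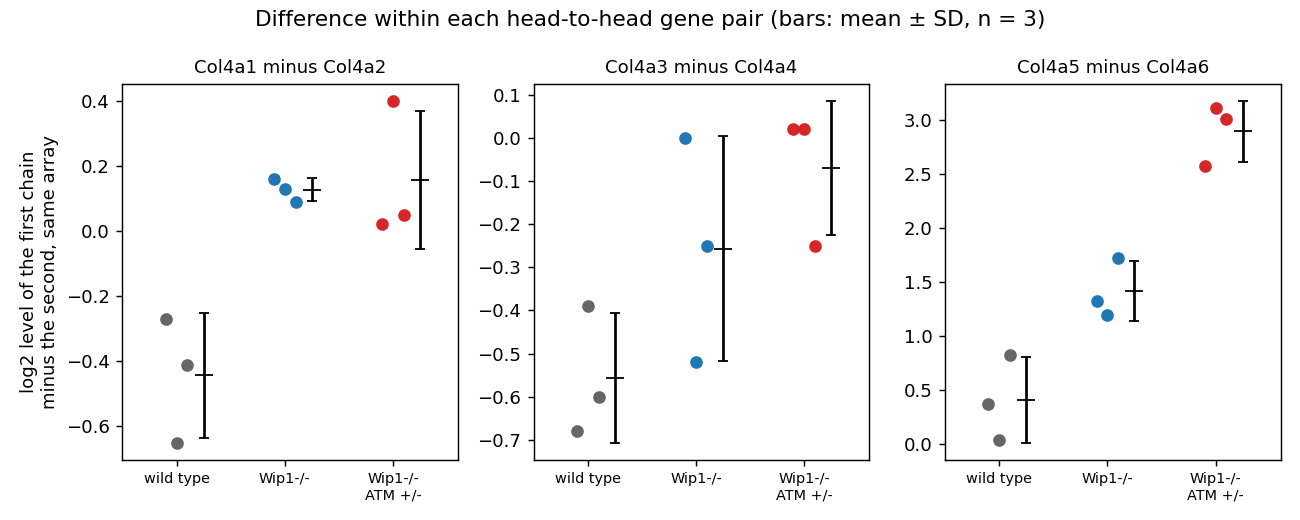
Difference of the log2 levels of both genes of a head-to-head pair on the same array, by genotype, with the mean and SD of 3 arrays. For Col4a5 minus Col4a6 the group means are 0.41, 1.42 and 2.90, and for Col4a1 minus Col4a2 they are -0.44, 0.13 and 0.16, with a vertical scale of its own for each pair.

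Other genes of the basement membrane, of its receptors and of collagen synthesis and turnover were counted in fixed lists, each gene by its brightest tested probe. Over all tested probes 9.6% were called higher and 8.07% lower in Wip1-/- than in wild type. On the arrays labelled Wip1-/- ATM +/- these shares were 13.3% and 14.8%. Laminins, nidogens, proteoglycans and their companions, the partners of type IV collagen in the sheet, had 17 of 28 listed genes tested. In Wip1-/- 8 rose, 0 fell and the median log2 change was 0.41. Relative to wild type, the arrays labelled Wip1-/- ATM +/- had 13 rising, 0 falling and a median of 0.83. The largest rises in Wip1-/- were those of Col18a1 (1.11 ± 0.18, limma adjusted p = 0.00234), whose product carries the endostatin fragment, Agrn (0.96, limma adjusted p = 0.0011), which encodes the proteoglycan agrin, the laminin chain gene Lamc3 (0.92, limma adjusted p = 0.000421) and Sparc (0.79, limma adjusted p = 0.00403), whose product binds collagen. On the arrays labelled Wip1-/- ATM +/- they were Lamc3 (3.08 ± 0.11, limma adjusted p = 1.66e-08), Nid1 (2.43, limma adjusted p = 1.17e-06), which encodes the linker nidogen, Lamb2 (2.23, limma adjusted p = 1.37e-06), another laminin chain gene, and Sparc (2.07, limma adjusted p = 1.07e-06). Agrn went against the order seen for collagen, since it was lower on the arrays labelled Wip1-/- ATM +/- than in Wip1-/- (-0.48, limma adjusted p = 0.0185). The Wip1-/- calls of Lamc3 and Sparc depended on the probe. In Wip1-/- the other Lamc3 probe stood at 0.37 (limma adjusted p = 0.184). The other Sparc probes stood at 0.58 and 1.12 there (limma adjusted p = 0.0608 and 0.000621).

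The list of collagen IV receptors, which also holds the laminin receptor gene Dag1, had 6 of 12 genes tested. In Wip1-/- 0 of the 6 passed the limma test (1 at an unadjusted p under 0.05, 0 from the authors' deposited table), with the smallest p for Itga3 (0.47 ± 0.20, limma adjusted p = 0.126), an integrin chain, and Ddr1 (0.24, limma adjusted p = 0.313), a receptor tyrosine kinase that collagen activates. The genes called higher on the arrays labelled Wip1-/- ATM +/- were 3 of the 6, namely Dag1 (1.51, limma adjusted p = 0.000167), which encodes the laminin receptor dystroglycan, Itga3 (at least 1.84-fold, limma adjusted p = 0.000213) and Ddr1 (0.59, limma adjusted p = 0.0138). Another probe of Ddr1 stood at -0.16 there (limma adjusted p = 0.528). Itga1, encoding another integrin chain, was not called there on its brightest probe (0.06, limma adjusted p = 0.779). Its other probe was called lower (-0.93, limma adjusted p = 0.000522).

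Enzymes and chaperones that fold, modify, export or cross-link collagen were called higher at a share not far from that of all probes. Of 19 tested among 27 listed, 3 were higher and 0 lower in Wip1-/-, with a median of 0.13, and 3 were higher and 1 lower on the arrays labelled Wip1-/- ATM +/-, with a median of 0.15. Over all probes 9.60% and 13.3% were called higher in these comparisons. Serpinh1, which encodes the collagen chaperone HSP47, rose in both groups on its brightest probe, with changes of 0.75 ± 0.12 in Wip1-/- (limma adjusted p = 0.00191) and 2.54 ± 0.12 on the arrays labelled Wip1-/- ATM +/- (limma adjusted p = 7.05e-08). Its other probe stood at -0.16 in Wip1-/- (limma adjusted p = 0.63) and at 0.90 on the arrays labelled Wip1-/- ATM +/- (limma adjusted p = 0.00649). The prolyl hydroxylase subunit gene P4ha2 rose by 0.39 and 0.67 on its brightest probe (limma adjusted p = 0.0484 and 0.00171). The other P4ha2 probe was not called in Wip1-/- (0.37, limma adjusted p = 0.0916). P4hb, encoding the other subunit of prolyl hydroxylase, was called higher in Wip1-/- (0.63, limma adjusted p = 0.0134). On the arrays labelled Wip1-/- ATM +/- the cross-linking enzyme gene Lox rose at least 1.20-fold (limma adjusted p = 0.000166). Mia3, needed to export large collagens, fell by 0.48 there on its brightest probe (limma adjusted p = 0.0304). The other Mia3 probes were not called there (-0.19 and -0.23, limma adjusted p = 0.335 and 0.25), so its fall depends on the probe.

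Genes of collagen IV turnover had 8 of 14 tested. In Wip1-/- the counts were 4 rising and 0 falling, with a median of 0.35. They were 4 and 1, with a median of 0.81, on the arrays labelled Wip1-/- ATM +/- relative to wild type. On its brightest probe Timp3, an inhibitor of matrix proteases, rose by 1.11 ± 0.15 and 3.00 ± 0.15 in the 2 comparisons with wild type (limma adjusted p = 0.000832 and 1.01e-07). Mmp14, which encodes a membrane protease, rose by 0.98 and 2.20 (limma adjusted p = 0.00391 and 3.58e-06), and Timp2, another inhibitor, rose by 0.48 and 2.08 (limma adjusted p = 0.0369 and 9.1e-07). Reck, a membrane-bound protease inhibitor, was called in Wip1-/- (0.50, limma adjusted p = 0.026), and Mmp2, a type IV collagenase, rose at least 1.38-fold on the arrays labelled Wip1-/- ATM +/- (limma adjusted p = 7.52e-05). The other Reck probe was not called in Wip1-/- (0.48, limma adjusted p = 0.0658). The other probes of Timp3 stood at -0.24 and 0.49 in Wip1-/- (limma adjusted p = 0.457 and 0.114) and at -0.09 and 0.95 on the arrays labelled Wip1-/- ATM +/- (limma adjusted p = 0.79 and 0.00414), so both its call and its sign depend on the probe.

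Fibrillar collagens, which build fibres and not sheets, had 8 of 11 tested. In Wip1-/- 1 rose, Col5a1 (0.42, limma adjusted p = 0.0171), 0 fell and the median was 0.01, or -0.03 with median scaling or cyclic loess. That count is not far from the 9.6% of all tested probes called higher in that comparison. On the arrays labelled Wip1-/- ATM +/- the counts were 4 rising and 0 falling relative to wild type, with a median of 0.58. These were Col1a1 (2.32 ± 0.16, limma adjusted p = 8.82e-07), Col1a2 (at least 1.91-fold), Col3a1 (at least 1.36-fold) and Col5a1 (1.03, limma adjusted p = 2.24e-05). Col1a1 stood at 0.31 in Wip1-/- (limma adjusted p = 0.193), where Col4a1 was at 1.25. Whether fibrillar and type IV collagens differ in their Wip1-/- response was not tested.

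The genes most like each chain over the arrays were found by the root mean square difference of log2 levels centred on wild type. It was taken over 9 arrays and 15494 tested probes with 1 gene name. Each chain was represented by its brightest called probe, so for Col4a4 and Col4a5 the results hold for that probe only. The other Col4a5 probe changed by 0.31 and 2.14 from wild type, beside 1.15 and 3.24 for the probe used. Nearest to Col4a1 were Pdlim3, Myl9 and Olfml3, with differences of 0.11, 0.12 and 0.14, and nearest to Col4a2 were Lamb2, Stard8 and Eln, with 0.08, 0.12 and 0.13. Col4a3 was closest to Acta2, Serping1 and Bgn, at 0.12, 0.14 and 0.14. Myl9 and Acta2 encode contractile proteins of smooth muscle, and Eln and Bgn encode elastin and the matrix proteoglycan biglycan. Col4a4 was closest to Prkcb, Nhsl2 and Cmtm8, at 0.14, 0.14 and 0.15. Col4a5 was closest to Septin11, Ccn2 and Col6a1, at 0.17, 0.20 and 0.21, the last of these encoding a chain of the beaded collagen VI. For Col4a6 they were Ppp1r2, 4930405A10Rik and Gm2888, at 0.11, 0.13 and 0.13. Pearson's r ran from 0.985 to 0.998 for the first 5 genes and from 0.954 to 0.956 for Col4a6, over arrays that share 3 group means. Between the chains themselves the smallest difference was 0.24 for Col4a1 with Col4a3, from different pairs, and the 2 partners Col4a1 and Col4a2 differed by 0.50.

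Markers of several other cell types were higher where the collagens were higher. In bulk RNA, a change in the number of cells of a type and a change in RNA per cell cannot be told apart. Over all tested probes 9.6% were called higher and 8.07% lower in Wip1-/- than in wild type. On the arrays labelled Wip1-/- ATM +/- these shares were 13.3% and 14.8%. Spermatid markers, such as the protamine gene Prm1 and the transition protein gene Tnp1, were bright in all groups, with 14 of 16 tested and a summed linear level of 263000 to 278000 in wild type, 253000 to 258000 in Wip1-/- and 268000 to 273000 on the arrays labelled Wip1-/- ATM +/-. Of these, 0 rose (1 at an unadjusted p under 0.05 in limma) and 4 fell in Wip1-/-, and 1 rose and 1 fell in the remaining group. Their sum is carried by bright probes, such as the brightest of Prm1 at mean log2 levels of 15.32, 15.28 and 15.22. Quantile normalization gives the top ranks of each array the same values, so a steady sum says little about spermatid content. Among peritubular myoid and smooth muscle markers 9 of 12 were tested, and 7 rose and 1 fell in Wip1-/- and 8 rose and 0 fell on the arrays labelled Wip1-/- ATM +/-. Their summed level was 14700 to 16300 in wild type, 19400 to 20500 in Wip1-/- and 40100 to 41700 on the arrays labelled Wip1-/- ATM +/-, and Acta2, the smooth muscle actin gene, rose by 1.30 and 2.44 (limma adjusted p = 7.88e-05 and 4.62e-08). Cnn1, Tagln and Synpo2 of that list were below the detection filter.

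Fibroblast and stromal markers had 5 of 10 tested, with 3 rising in Wip1-/- and 4 on the arrays labelled Wip1-/- ATM +/- and 0 falling. Their summed level was 787 to 854 in wild type, 1500 to 1650 in Wip1-/- and 3450 to 3830 on the arrays labelled Wip1-/- ATM +/-. The erythroid markers, with 4 of 10 tested, had 2 and 4 rising and sums of 331 to 376, 574 to 634 and 2180 to 2490. The type IV collagen sum over 6 genes, on the same scale, takes most of its wild type level from the Col4a1 and Col4a2 probes. Their mean log2 levels in wild type were 7.37 and 7.82, beside 5.13 to 6.34 for the other summed probes. The sum averaged 1.92 times the wild type level in Wip1-/- and 5.36 times on the arrays labelled Wip1-/- ATM +/-. For smooth muscle markers these averages were 1.30 and 2.66, but 66.9% of their wild type sum came from Actg2, an actin gene that fell by 0.40 in Wip1-/- (limma adjusted p = 0.0335) and stood at 0.25 on the arrays labelled Wip1-/- ATM +/- (limma adjusted p = 0.129). Without Actg2, a choice made after seeing the data, they were 2.40 and 5.65, and the median log2 change over the 9 markers was 0.87 and 2.44. The averages were 1.89 and 4.35 for fibroblast markers and 1.73 and 6.61 for erythroid markers.

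By their sums, endothelial markers followed another order and Sertoli markers the same order as collagen. Endothelial markers, with 10 of 14 tested, had 8 rising in Wip1-/- and 2 on the arrays labelled Wip1-/- ATM +/-, with sums of 1020 to 1070, 1500 to 1550 and 1060 to 1190, highest in Wip1-/-. Between the mutant groups 0 of them rose and 6 fell on the arrays labelled Wip1-/- ATM +/-, with a median of -0.55. Over all tested probes 15.1% were called higher and 18.6% lower in that comparison. Pecam1, Kdr and Erg were below the detection filter. Sertoli markers, with 7 of 14 tested, had 1 and 4 rising and sums of 866 to 1010, 1030 to 1100 and 1270 to 1400, and Amh, Gata4, Fshr, Dhh and Gata1 were below the filter. At an unadjusted p under 0.05 in limma, 3 Sertoli markers were higher and 2 lower in Wip1-/-. Single Sertoli markers thus did not all follow the sum. Insl3 was the 1 Leydig marker tested of 9 and was not called in any comparison, and Cyp17a1, Cyp11a1, Star, Hsd3b1, Hsd3b6, Hsd17b3 and Nr5a1 were below the filter. Macrophage markers, with 9 of 12 tested, had 1 rising and 1 falling in Wip1-/- and 1 rising and 2 falling on the arrays labelled Wip1-/- ATM +/-. These counts are not far from the shares of all tested probes, 9.6% higher and 8.07% lower in Wip1-/-. The shares were 13.3% and 14.8% on the arrays labelled Wip1-/- ATM +/-. Spermatogonium markers, with 7 of 14 tested, had 1 rising in Wip1-/- and 6 falling on the arrays labelled Wip1-/- ATM +/-, where the sum was 762 to 855 beside 1690 to 1940 in wild type. Spermatocyte markers had 10 of 14 tested, with 2 falling in Wip1-/- and 3 on the arrays labelled Wip1-/- ATM +/- and 0 rising. The part of these cell types in the differences of collagen and of the related lists was not tested.

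**Figure D4:**
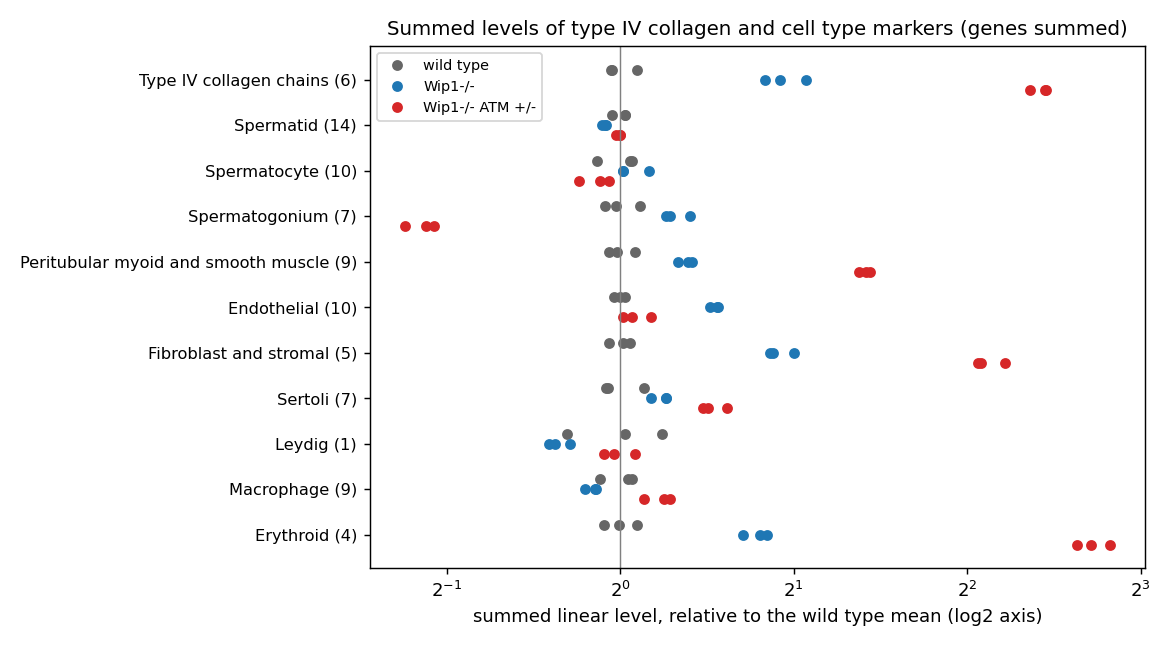
Summed linear level of each marker list and of the 6 type IV collagen genes on each array, relative to the wild type mean. Type IV collagen, smooth muscle, fibroblast and erythroid sums lie lowest in wild type and highest on the arrays labelled Wip1-/- ATM +/-, with averages of 5.36, 2.66 (with Actg2), 4.35 and 6.61 in the last group, and endothelial sums are highest in Wip1-/-.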

How the data were processed

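Total RNA was prepared with Trizol and column clean-up and labelled as biotinylated cRNA, per the labels' protocols. Per the file headers, the authors deposited for each probe and array a non-normalized scanner intensity with a detection p-value, and a second table of processed intensity values. By their values these are on a linear scale, share 1 distribution (column medians 110.972 to 111.065) and rank probes as the scanner does (rank correlation 1). The headers name no scanner software or earlier background step. Detection p-values without a decimal point (895 cells) were divided by 1000, after which the lowest was 0.125. Scanner cells were blank for 1697 probes, none of them type IV collagen.

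Intensities were corrected and normalized with neqc (offset 16, which compresses changes of dim probes, then quantile normalization) in limma 3.58.1 and R 4.3.3, and 18867 probes were kept. A single linear model held all 9 arrays, each genotype with its own mean (6 residual and 5.17 prior degrees of freedom), two-sided, with Benjamini-Hochberg adjustment over all kept probes. Pair differences were tested by exact permutation. Each list gene was represented by its brightest tested probe. Up to 4 called genes with the largest change were named per list and comparison with wild type (2 with the smallest p where none was called), and 3 nearest genes per chain. Other probes of Timp3, Serpinh1, Ddr1, Itga1, Lamc3, Sparc, P4ha2, Mia3 and Reck were named after their values were seen. So were Actg2, Prm1, Tnp1, Acta2 and Insl3, genes below the filter, and changes of Agrn, Itga1, Col1a1 and Col5a1 outside this rule. The members and lists were chosen with earlier results of these data known. Replicate numbers did not pair arrays (correlations of deviations between -0.33 and 0.28, with 2 of 9 pairs over 0.1). No 2 arrays held identical values (0 pairs). The number of arrays limits the precision, with a median SD over probes of 0.141 to 0.181 among the genotypes. Steps were tested on simulated data. Alternatives covered the authors' table, the normalization, the detection filter, the samples fitted, a replicate block, 1 probe per gene, other probes of a pair and each array left out.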

Additional observations from a re-analysis of the deposited data

How the results depend on the processing

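Of 438 recomputed changes of single type IV collagen probes, 433 kept their direction and their side of the threshold, 4 lost the call and 1 reversed. The reversed one was Col4a6 ILMN_1254059 in Wip1-/- against wild type, at 0.00 to 0.25 with 1 array left out (0.00 without wild type replicate 1), and it was not called with all arrays either. The type IV collagen probes called in Wip1-/-, on the arrays labelled Wip1-/- ATM +/- and between these groups numbered 6, 9 and 9, 5 to 6, 9 and 8 to 9 with 1 array left out, and 4, 5 and 5 among probes detected on all 9 arrays, where fewer members were tested. They were 6, 9 and 9 from the authors' table, and 6, 10 and 9 with no detection filter. Over all probes 3333, 5307 and 6345 were called, 2095, 3105 and 3670 with 1 probe per gene, where fewer features were tested, and 1889 to 3311, 4273 to 5084 and 4940 to 6520 with 1 array left out. The first count fell to 1889 without Wip1-/- replicate 1 and to 2021 without replicate 3, and the cause was not tested. The share of higher calls was 54.3%, 47.4% and 44.8%, and 59.4%, 33.3% and 31.4% with median scaling, which shifted the median of all probes to 0.03, -0.16 and -0.14. It was 56%, 56.9% and 52.9% with cyclic loess. The replicate block, whose numbers did not pair the arrays, gave 2848, 4979 and 5979 calls and left the member counts at 6, 9 and 9. Under it the exact permutation p over the 3 genotypes for Col4a1 minus Col4a2 was 0.111 in place of 0.0357. The change of that difference on the arrays labelled Wip1-/- ATM +/- was 0.60, and 0.48 to 0.69 with 1 array left out. For Col4a3 minus Col4a4 the change was 0.43 to 0.58 with 1 array left out, 0.56 with ILMN_2679871 and -0.69 with ILMN_1228314. Col4a5 minus Col4a6 kept its direction and its unadjusted p under the threshold in each alternative, at 1.39 to 2.69. The count of rising genes in the related lists was recomputed with the authors' table, median scaling and cyclic loess, a choice made after seeing the data. It stayed within 1.5 times in each comparison with wild type, except that 5 folding and cross-linking genes rose in Wip1-/- with median scaling in place of 3, and that counts of 0 to 2 changed among spermatogonium, spermatid and macrophage markers. Counts of falling markers also moved, from 4 to 7 for spermatid markers in Wip1-/- with median scaling (median -0.42 in place of -0.09), and on the arrays labelled Wip1-/- ATM +/- from 3 to 1 for spermatocyte markers and from 1 to 0 for spermatid markers with cyclic loess, and from 2 to 0 for macrophage markers with cyclic loess or the authors' table. Signals near background limit what can be said of Col4a6, and of Col4a3, Col4a5 and the Col4a4 probe ILMN_1228314 in wild type.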
